A study of Mus musculus with 7 samples.

Results

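The Ifi200 or PYHIN family was described through 8 genes of a cluster on mouse chromosome 1, taken from the count table by their symbols: Ifi204, Mnda, Ifi205, Pyhin1, Ifi203, Ifi202b, Aim2 and Mndal. All 8 were found among the 21878 genes of the table. RNA came from 7 tumours grown from B16F10, a pigmented mouse melanoma line, in female C57BL/6J mice. Of these, 3 tumours form the control group (NC), from mice labelled control. The other group holds 4 tumours, from mice dosed orally with Zelnorm (1.25 mg/kg, 2 days between doses). Zelnorm is a trade name of tegaserod, an agonist of a serotonin receptor. Libraries are called by their column names, which begin with NC for controls (5, 6 and 10) and with MBZ for Zelnorm tumours (9, 11, 13 and 15). The sources used here give neither the age of the mice nor the vehicle of the controls, and each sample is whole tumour, so that tumour cells and host cells were read together. Whether every library stems from a separate mouse is not stated, and p-values therefore measure the spread between these samples.

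PYHIN proteins carry a HIN domain, which binds DNA, and most also carry a pyrin domain, through which they assemble with partner proteins. Those of their genes with Ifi symbols are named for a response to interferon. In myeloid cells PYHIN proteins are known as sensors of DNA in the cytosol and nucleus. Aim2 recruits the adaptor encoded by Pycard and so activates caspase-1, while Ifi204, a mouse relative of human IFI16, is known to act through STING toward interferon production. Ifi202b encodes a protein with HIN domains and no pyrin domain that is known to hold back Aim2. Mnda and Mndal take their names from the human myeloid cell nuclear differentiation antigen. The table's Mnda is named Ifi211 and its Pyhin1 is named Ifi209 in the reference gene table (RefSeq, GRCm38.p6), and the symbols of the count table are kept here.

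The members were chosen by their measured difference in counts between Zelnorm and NC. Their values in that comparison are therefore a description, carry no test and support nothing. The other genes of the cluster, the gene lists, the sequences and the spread of the members within each group were not used in that choice. The lists were themselves chosen with earlier results of these data known, so they give no independent support.

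The promoters of the cluster show what several of these genes have in common. RefSeq promoter windows of 300 bases, from 250 before to 50 after an annotated start, were found for 7 of the 8 members and for all 5 other PYHIN genes of the table. Ifi204 had no entry. Each window was searched on both strands for GAAANNGAA (TTCNNTTTC on the other strand), the core of interferon-stimulated response elements, where N is any base. The pattern was present in 4 of 7 members, Ifi203, Ifi205, Mnda and Mndal, and in 5 of 5 other PYHIN genes. It occurred in 8.56% of 32851 promoter windows of the same length, or in 9.76% of genes when all windows of a gene were joined. Among genes of the type I interferon response list, 12 of 20 held it. Another interferon-linked pattern, the core of gamma-activated sites TTCNNNGAA, was sought in the same windows. It was present in 1 of 7 members, Ifi202b, and in 0 of 5 other PYHIN genes, against 8.30% of all windows.

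The match to GAAANNGAA lay close to the start in most of the PYHIN genes that held it. On the strand of the gene and wholly within the 100 bases before the start, it was present in 3 members and in all 5 other PYHIN genes, against 1.37% of all genes and 3 of 20 genes of the type I interferon response list. Its first base lay 35 bases before the start in Ifi203, 36 in Mndal, 37 in Mnda, 40 in Ifi206, 41 in Ifi207, 58 in Ifi208, 73 in Ifi213 and 79 in Ifi214. The same 9 bases, GAAATCGAA, were found in 7 genes. In Ifi205 the match on the gene strand lay 134 bases before the start. These stretches are shown for the members and for the other PYHIN genes they resemble, as the 100 bases before the start, 5′ to 3′ on the strand of the gene, from the RefSeq table on GRCm38.p6. Capitals mark the match.
Ifi203, chr1:173942493-173942592, minus strand: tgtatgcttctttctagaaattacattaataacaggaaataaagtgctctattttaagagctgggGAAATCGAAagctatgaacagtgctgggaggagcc
Mndal, chr1:173880188-173880287, minus strand: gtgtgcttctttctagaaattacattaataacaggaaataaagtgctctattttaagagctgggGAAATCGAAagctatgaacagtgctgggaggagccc
Mnda, chr1:173913047-173913146, minus strand: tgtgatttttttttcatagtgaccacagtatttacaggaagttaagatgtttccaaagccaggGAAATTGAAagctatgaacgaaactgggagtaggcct
AI607873 (Ifi207), chr1:173741810-173741909, minus strand: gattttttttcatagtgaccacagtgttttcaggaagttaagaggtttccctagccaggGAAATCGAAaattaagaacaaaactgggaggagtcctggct
BC094916 (Ifi214), chr1:173535958-173536057, minus strand: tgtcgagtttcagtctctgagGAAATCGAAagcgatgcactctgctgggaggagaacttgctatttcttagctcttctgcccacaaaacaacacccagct
Pyhin1, chr1:173630759-173630858, plus strand: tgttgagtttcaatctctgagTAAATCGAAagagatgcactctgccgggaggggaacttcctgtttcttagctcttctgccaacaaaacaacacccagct
Ifi205, chr1:174031756-174031905, minus strand, the 150 bases before the start: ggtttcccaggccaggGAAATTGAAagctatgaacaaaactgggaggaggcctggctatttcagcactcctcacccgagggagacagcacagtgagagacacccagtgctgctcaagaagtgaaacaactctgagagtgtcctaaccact

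Ifi203 and Mndal shared an unbroken run of 96 of these bases, match included. In Pyhin1 the capitals mark the stretch nearest to GAAATCGAA, which differs from it by 1 base, G1T, counted from 1 at the 5′ end of the 9 bases. That stretch begins 79 bases before the start, the same distance as the match in BC094916. The nearest stretches in the windows of Aim2 and Ifi202b differed at 3 of the 9 bases each. Ifi205 also held GAAAGTGAA on the other strand, 24 bases after the start. Ifi203 and Mndal each had another annotated start, whose sequence is not shown. Its window held 0 matches in Ifi203, and in Mndal it held GAAAGAGAA on the other strand, 53 bases before that start. A match is a description of the letters, and nothing in these data measured binding.

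Paralogues of the cluster share transcript sequence, and this bears on every count below. For each gene the longest protein-coding transcript of GENCODE M21 (GRCm38) was cut into all stretches of a given length, and a stretch was called shared when it occurred without mismatch in a transcript of another gene. As the read length is not known, 3 lengths were taken. With stretches of 150 bases, 46.4% of the Mnda transcript and 36.1% of Ifi205 were shared, and at 50 bases each shared more with the other than with any further gene. At 150 bases the shares were 10.8% for Ifi204, 1.76% for Mndal and 0.860% for Ifi203, and 0 for Aim2 and Ifi202b. With stretches of 50 bases they reached 72.9% for Mnda, 49.6% for Ifi205, 35.1% for Pyhin1, 30.2% for Ifi204, 27.2% for Mndal and 10.7% for Ifi203. Aim2 stayed at 0.789% and Ifi202b at 0. At that length Ifi204 shared most with Mnda, Pyhin1 with BC094916 and Ifi203 with its pseudogene Ifi203-ps. The sources used here do not say how reads that match several genes were counted, so the division of reads between Mnda and Ifi205 is uncertain, and Aim2 is the expressed member least touched by this limit.

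**Figure D1:**
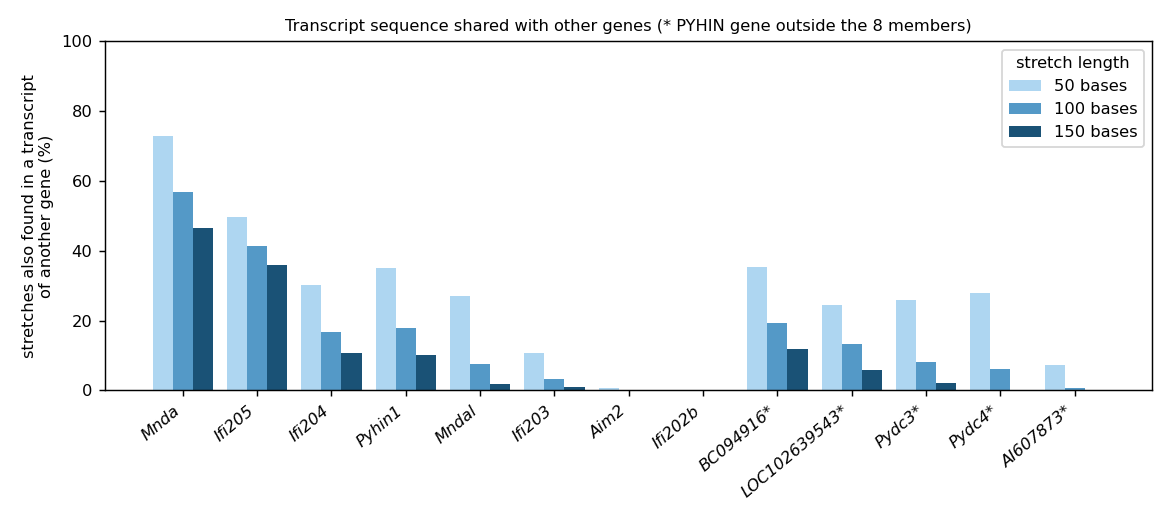
Percentage of stretches of 50, 100 or 150 bases (bars) of each gene's transcript that also occur in a transcript of another gene, for the 8 members and, marked with an asterisk, 5 other PYHIN genes. Mnda and Ifi205 stand highest at 150 bases, with 46.4% and 36.1%, whereas Aim2 and Ifi202b are at 0 there.

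The libraries held between 16903598 and 19666598 counts, and the floor of detection was set at 3 counts, which is 0.152 to 0.178 CPM (counts scaled to the adjusted library size). Pigment cell markers summed to between 31643 and 37182 CPM in every library, so the labelled tumour type is seen in its markers. Of 12997 genes tested with edgeR's quasi-likelihood test, 4 were higher in Zelnorm tumours and 0 lower at an adjusted p under 0.05. With no adjustment the same p limit left 902 higher and 439 lower. DESeq2 called 165 higher and 36 lower. Skeletal muscle transcripts differed widely between libraries, with marker sums of 6.17 to 41.9 CPM in NC and 6.87 to 370 CPM in Zelnorm tumours, highest in NC_5, MBZ_11 and MBZ_15.

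The family as a whole was more abundant in every Zelnorm tumour than in any control. Counts of the 8 members summed to 539 in NC_5, 729 in NC_6 and 520 in NC_10, and to 1223 in MBZ_9, 1294 in MBZ_11, 1158 in MBZ_13 and 1181 in MBZ_15. On the CPM scale the sum was 32.0 ± 7.56 (SD, n = 3) in NC and 68.0 ± 7.13 (SD, n = 4) in Zelnorm tumours, with ranges of 26.3 to 40.6 and 60.0 to 76.6. In bulk tumour RNA, more cells that express a gene and more RNA per cell cannot be told apart. Of the 8 members, 7 passed the filter on low counts, and Ifi202b did not. All 7 had a positive log2 fold change, between 0.89 and 1.23 with a median of 1.12, where 50.2% of all tested genes were above 0 and their median was 0.000363. Every Zelnorm library lay above every NC library for 5 of the 7, against 5.33% of all tested genes, and for 0 of the 7 every Zelnorm library lay below, against 4.27%. A log2 fold change of at least 1 was reached by 4 of the 7, against 2.12%. At an adjusted p under 0.05 (edgeR), 1 of the 7 was called, against 0.0308% of tested genes. These shares follow from how the members were chosen, and nothing is read from them.

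**Figure D2:**
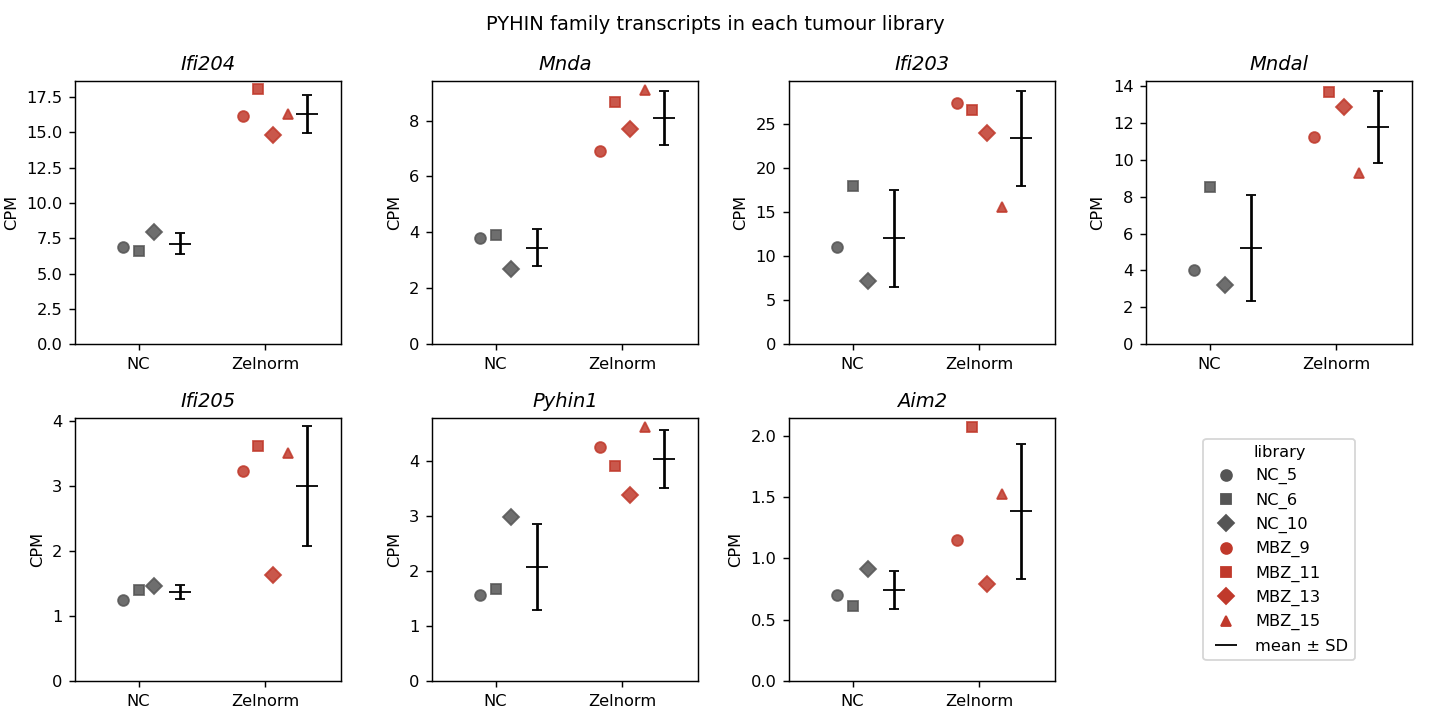
Abundance in CPM (linear axis from 0) of the 7 members that passed the count filter, 1 point per library, with the mean and SD of each group to the right of its points. Ifi204 and Mnda show the widest gap between the groups, while Ifi203 and Aim2 overlap between them.

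Ifi204 had the narrowest spread of the tested members among the Zelnorm tumours, with an SD of 0.12 in log2 CPM, and the second narrowest, after Ifi205, among the controls (0.14 against 0.11). It was at 6.88, 6.57 and 7.94 CPM in NC_5, NC_6 and NC_10, and at 16.2, 18.1, 14.8 and 16.3 CPM in MBZ_9, MBZ_11, MBZ_13 and MBZ_15. The lowest Zelnorm library stood 1.86-fold above the highest control. The log2 fold change was 1.19 ± 0.12 (SE), a 2.29-fold difference. With single libraries omitted it ran from 1.13 to 1.28. The gene was called by edgeR in every set of 6 libraries except the set without NC_5, in which 0 genes were called. As it was chosen by this same difference, these calls are a description and support nothing.

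Mnda was at 3.79, 3.90 and 2.68 CPM in the controls and at 6.90, 8.65, 7.71 and 9.09 CPM in MBZ_9, MBZ_11, MBZ_13 and MBZ_15. NC_10 was the lowest library and MBZ_15 the highest, and the groups did not overlap. Its log2 fold change was 1.23 ± 0.18 (SE), the highest of the members. Ifi205, its nearest relative in sequence, was at 1.25, 1.39 and 1.47 CPM in the controls and at 3.22, 3.61, 1.63 and 3.50 CPM in the Zelnorm tumours. MBZ_13 stood apart from the other 3 treated tumours and only 1.11-fold above the highest control. The log2 fold change was 1.12 ± 0.31 (SE). As the reads of this pair cannot be fully told apart, their sum was taken as well. It ran from 4.15 to 5.29 CPM in NC and from 9.34 to 12.6 CPM in Zelnorm tumours, with a log2 ratio of the group means of 1.20.

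Ifi203 and Mndal varied together among the controls. Of their transcripts, 0.860% and 1.76% of stretches of 150 bases were shared with any other gene, while their promoters were nearly the same. A link to shared promoter or transcript sequence was not tested. Ifi203 was at 10.995, 17.9 and 7.13 CPM in NC_5, NC_6 and NC_10, and at 27.4, 26.6, 24.0 and 15.6 CPM in MBZ_9, MBZ_11, MBZ_13 and MBZ_15. Mndal was at 4.01, 8.52 and 3.19 CPM in the controls and at 11.2, 13.7, 12.9 and 9.29 CPM in the treated tumours. For both genes NC_6 was the highest control, NC_10 the lowest control and MBZ_15 the lowest Zelnorm library. The groups overlapped for Ifi203, where MBZ_15 lay under NC_6, and not for Mndal. Log2 fold changes were 0.96 ± 0.28 (SE) for Ifi203 and 1.17 ± 0.29 (SE) for Mndal. They ran from 0.69 to 1.36 and from 0.91 to 1.70 with single libraries left out, lowest without NC_10 and highest without NC_6 in both genes.

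Pyhin1 was at 1.57, 1.67 and 2.98 CPM in NC_5, NC_6 and NC_10 and at 4.26, 3.91, 3.38 and 4.62 CPM in MBZ_9, MBZ_11, MBZ_13 and MBZ_15. Here NC_10 was the highest control, and the lowest Zelnorm library was 1.13-fold above it. The log2 fold change was 0.96 ± 0.27 (SE), and 1.31 without NC_10. Aim2, the inflammasome sensor, had few counts, 11 to 18 in the controls and 14 to 35 in the treated tumours. Its level was 0.704, 0.613 and 0.910 CPM in the controls and 1.15, 2.07, 0.788 and 1.52 CPM in the Zelnorm tumours. MBZ_13 lay within the range of the controls and MBZ_11 was the highest library. The log2 fold change was 0.89 ± 0.39 (SE), 0.63 without MBZ_11 and 0.33 without NC_5, MBZ_11 and MBZ_15, the 3 libraries with the most muscle transcripts. In the same 4 libraries Ifi204, Mnda, Mndal and Ifi203 had log2 fold changes of 1.09, 1.15, 1.04 and 1.04, and Ifi205 and Pyhin1 of 0.75 and 0.70. Ifi202b had 1 count in MBZ_11 and 0 in the 6 other libraries, under the floor in both groups, so that no comparison was possible and the antagonist of Aim2 was not detectable at this depth.

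Levels were compared between members only per kilobase of transcript. In the controls the order by mean was Ifi203 with 3.20 ± 1.46 CPM per kilobase (SD, n = 3), Ifi204 with 3.11 ± 0.31, Mndal with 2.59 ± 1.42, Mnda with 1.94 ± 0.38, Ifi205 with 0.848 ± 0.070, Pyhin1 with 0.603 ± 0.229 and Aim2 with 0.261 ± 0.054. In the Zelnorm tumours Ifi204 came first with 7.11 ± 0.58 CPM per kilobase (SD, n = 4), followed by Ifi203 with 6.24 ± 1.43, Mndal with 5.81 ± 0.96, Mnda with 4.53 ± 0.55, Ifi205 with 1.86 ± 0.57, Pyhin1 with 1.18 ± 0.15 and Aim2 with 0.487 ± 0.193. The first 4 genes overlapped with their neighbours in the order in both groups, as did Ifi205 with Pyhin1. Gaps without overlap lay between Mnda and Ifi205 and between Pyhin1 and Aim2, in both groups. The makeup of the family was compared as shares of its counts. Ifi203 supplied 36.3% ± 8.61 of the family's counts in NC and 34.1% ± 5.65 in Zelnorm tumours, Ifi204 23.3% ± 7.01 and 24.1% ± 2.08, and Mndal 15.6% ± 4.73 and 17.3% ± 1.96 (SD, n = 3 and 4), differences smaller than the spread between libraries.

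The cluster holds 5 further PYHIN genes that were found in the table under older names and were not members: AI607873 (Ifi207), LOC102639543 (Ifi206), Pydc4 (Ifi213), Pydc3 (Ifi208) and BC094916 (Ifi214). With the members they lie over 682 kb of GRCm38 chromosome 1, from 173349547 to 174031755. They were tested over all genes, and 0 of the 4 that passed the filter reached an adjusted p under 0.05 with edgeR, while 3 had an unadjusted p under 0.05, all higher, against 6.94% of all tested genes. AI607873 was at 4.77, 3.68 and 6.37 CPM in NC_5, NC_6 and NC_10 and at 9.03, 8.82, 8.44 and 7.62 CPM in MBZ_9, MBZ_11, MBZ_13 and MBZ_15, with no overlap between groups. The difference came to 0.78 ± 0.19 in log2 (SE), with an edgeR adjusted p = 0.172. LOC102639543 was at 1.30, 1.11 and 1.21 CPM in the controls and at 3.28, 1.54, 2.93 and 2.24 CPM in the Zelnorm tumours, again without overlap (log2 fold change 1.04 ± 0.31, edgeR adjusted p = 0.282).

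The sparser genes of the cluster overlapped between groups. Pydc4 was at 0.739 ± 0.240 CPM (SD, n = 3) and 1.42 ± 0.50 (SD, n = 4) (log2 difference 0.93 ± 0.39 SE, with edgeR adjusted p = 0.452). Pydc3 was at 0.834 ± 0.209 and 1.33 ± 0.63 CPM (0.66 ± 0.43, edgeR adjusted p = 0.654). BC094916 had 0 to 2 counts in any library, below the floor. The median log2 fold change of the 4 tested genes was 0.85.

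**Figure D3:**
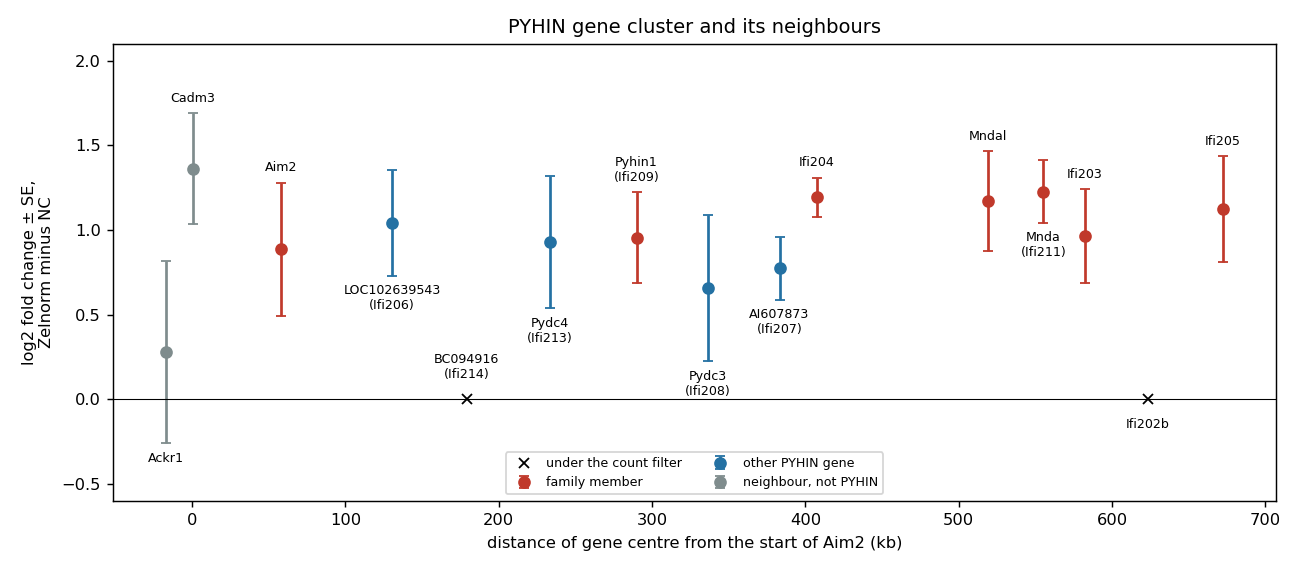
Log2 fold change of Zelnorm minus NC with its SE for PYHIN genes and 2 neighbours, plotted against the distance of the gene's centre from the start of Aim2 in kb, with crosses at 0 for the 2 genes under the count filter. All 11 tested PYHIN genes lie above 0, between 0.66 and 1.23, and so does the neighbour Cadm3 at 1.36.

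Genes beside the cluster that are no PYHIN genes gave a mixed picture. Cadm3, a cell adhesion gene that overlaps the first part of Aim2 on the opposite strand, had 13, 12 and 22 counts in NC_5, NC_6 and NC_10 and 29, 41, 32 and 53 counts in MBZ_9, MBZ_11, MBZ_13 and MBZ_15. The groups did not overlap, and the log2 fold change was 1.36 ± 0.33 (SE, edgeR adjusted p = 0.172). The library kit keeps the strand, but how strand was handled in counting is not stated, so reads of Aim2 and Cadm3 in the shared region may have been exchanged. Ackr1, a chemokine receptor gene that lies almost wholly within the span of Cadm3 and may have exchanged reads with it, had 5 to 16 counts in NC and 6 to 19 in Zelnorm libraries (log2 difference 0.28 ± 0.54 SE, with edgeR adjusted p = 0.904). On the other side of the cluster Olfr433 had 4 counts in NC_5 and 0 elsewhere, and Olfr432 had 0 in all libraries.

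Within the groups the members did not move as 1 block. Each library was compared with the mean of its own group on the log2 CPM scale, which leaves out the difference between groups. In NC_10, Ifi203, Mndal and Mnda lay below the NC mean by 0.64, 0.57 and 0.34, written as deviations of -0.64, -0.57 and -0.34, while Pyhin1, Aim2, Ifi204 and Ifi205 lay above it by 0.56, 0.27, 0.16 and 0.10. In NC_6 the order was turned, with Ifi203 and Mndal at 0.67 and 0.82 and Pyhin1, Aim2 and Ifi204 at -0.24, -0.22 and -0.11. AI607873 went with the latter genes, at -0.38 in NC_6 and 0.40 in NC_10. Among the Zelnorm tumours MBZ_13 was low for Ifi205 (-0.77) and Aim2 (-0.66), MBZ_15 was low for Ifi203 (-0.55) and Mndal (-0.32), and MBZ_11 lay above the group mean for 6 of 7 members.

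**Figure D4:**
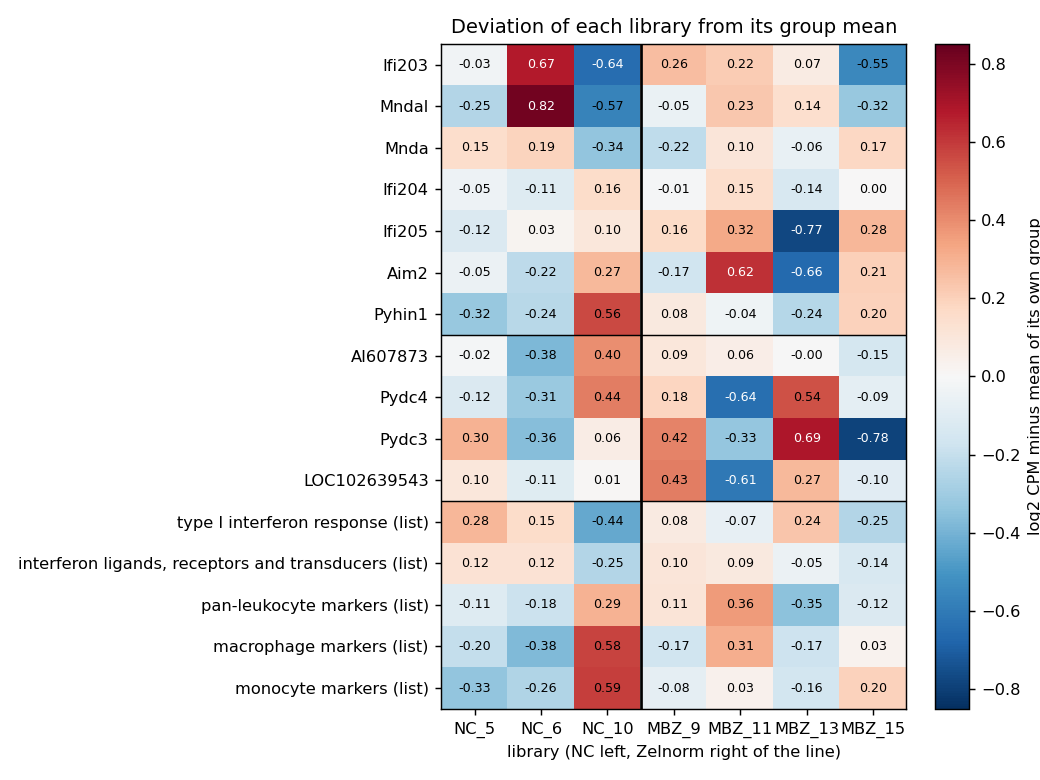
Deviation of each library from the mean of its own group in log2 CPM, as a colour scale with the value in each cell, for 7 members, 4 other PYHIN genes and the mean of 5 gene lists. In NC_10 Ifi203 and Mndal are low, as is the type I interferon response list, whereas Pyhin1 is high, as are the macrophage and monocyte lists. Other libraries differ, as in NC_5, where the type I interferon response list is at 0.28 and Mndal at -0.25.

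Gene lists measured in the same way ran in different directions in the controls. NC_10 had the lowest level of the type I interferon response list among the controls, at -0.44 from the group mean, and also the lowest level of T and NK cell markers (-0.39). It had the highest levels among the controls of the fibroblast (0.77), monocyte (0.59), macrophage (0.58), endothelial (0.43), B cell (0.30), pan-leukocyte (0.29) and dendritic cell (0.17) marker lists. For dendritic cell markers the direction depended on the measure. Their summed CPM was lowest in NC_10, at 204 against 228 in NC_5 and 211 in NC_6. Pyhin1, Aim2, Ifi204 and Ifi205 were highest in this library among the controls, whereas Ifi203, Mndal and Mnda were lowest in it. Other libraries did not all repeat this. In NC_5 the type I interferon response list was at 0.28, with Ifi203 at -0.03 and Mndal at -0.25. In MBZ_15 that list was at -0.25, with Ifi203 at -0.55 and Mndal at -0.32. The macrophage list was at 0.31 and Pyhin1 at -0.04 in MBZ_11, while the monocyte list and Pyhin1 were both at 0.20 in MBZ_15. With so few libraries these are descriptions of single libraries. The part of interferon or of any of these cell types in the levels of the members was not tested.

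Genes with the most similar profile over all 7 libraries were sought by the mean absolute difference between their centred log2 CPM and the mean profile of the 7 tested members. Among 11369 genes the nearest was Cybb, a subunit of the phagocyte NADPH oxidase, with a mean difference of 0.089 where the median over all genes was 0.524. Cybb was itself among the 4 genes called, with a log2 fold change of 1.02 (edgeR adjusted p = 0.00533). Casp1, the protease that the Aim2 inflammasome activates, came second with 0.109. Slco2a1, a prostaglandin transporter gene, followed with 0.124, then the MHC class I genes H2-Q7 and H2-Q6 with 0.126 and 0.130, Plek with 0.139, Il10ra, a chain of the interleukin-10 receptor, with 0.141, and Trim30d with 0.142. This likeness includes the difference between the groups by which the members were chosen. With each group centred on its own mean, the 8 nearest genes were Fbxl8, Stk17b, Agtpbp1, Dsel, Xylb, Sirt1, Pcgf5 and Crem, at 0.036 to 0.051 where the median over all genes was 0.146. None of the first 8 genes was among the latter 8.

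The partners of these sensors were examined through lists. In the list of the Aim2 inflammasome and pyroptosis, 17 of 20 tested genes had a positive log2 fold change, with a median of 0.36. With edgeR 0 passed the adjusted threshold, while 7 had an unadjusted p under 0.05, all higher, against 6.94% of all tested genes. Casp1 was at 2.07 ± 0.50 CPM in NC and 4.03 ± 0.70 in Zelnorm tumours (SD, n = 3 and 4) (log2 difference 0.96 ± 0.25 SE, with edgeR adjusted p = 0.207). Gsdmd, which encodes the pore-forming protein cut by caspase-1, was at 6.56 ± 0.46 and 9.64 ± 1.84 CPM (0.55 ± 0.17, edgeR adjusted p = 0.282). The inhibitors Il1rn and Il18bp, which block interleukin-1 and interleukin-18, had log2 fold changes of 1.16 ± 0.26 and 1.31 ± 0.43 (edgeR adjusted p = 0.152 and 0.315). Libraries of the groups did not overlap for Casp1, Gsdmd and Il1rn, and did for Il18bp. In all, every Zelnorm library lay above every NC library for 3 of the 20, against 5.33% of all tested genes.

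In the list of DNA sensing through STING, by contrast, most genes lay near 0. Of 28 tested genes 19 were above 0 and 9 below, and the median log2 fold change was 0.06. With edgeR 0 passed the adjusted threshold and 9 had an unadjusted p under 0.05, all higher, against 6.94% of all tested genes. The 4 with the smallest p were the interferon regulatory factor Irf7, from 14.2 ± 2.61 to 30.5 ± 5.98 CPM (1.10 ± 0.16, edgeR adjusted p = 0.0559), the nucleotide hydrolase Samhd1 (0.41 ± 0.10, adjusted p = 0.172), Ifi35 (0.67 ± 0.18, adjusted p = 0.222) and Zbp1, a sensor of Z-form nucleic acid (1.28 ± 0.36, adjusted p = 0.239). Every Zelnorm library lay above every NC library for each of these 4, and for 8 of the 28 in all, against 5.33% of all tested genes. Ifi35 is also in the type I interferon response list, so it counts in both.

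Interferon signalling genes lay between these lists and the family. All 16 tested genes of the list of interferon ligands, receptors and transducers were above 0, with a median of 0.43 (0.28 without NC_10). With edgeR 0 were called and 10 had an unadjusted p under 0.05, all higher, against 6.94% of all tested genes. Stat2 was at 21.1 ± 2.29 and 34.8 ± 4.70 CPM (SD, n = 3 and 4), with a log2 fold change of 0.72 ± 0.12 (edgeR adjusted p = 0.0646). Socs1, a feedback inhibitor, and Irf2 had log2 fold changes of 1.04 ± 0.29 and 0.30 ± 0.09 (edgeR adjusted p = 0.234 and 0.243). Ifnb1 had at most 1 count in any library, Ifna1, Ifna2 and Ifna4 had 0, and Ifng had 0 to 16, so the first 4 of these genes were below the floor of 3 counts in every library. No other type I interferon gene was looked up. In the type I interferon response list all 26 genes were above 0, with a median of 0.78 and 0 called. At an unadjusted p under 0.05 (edgeR) 25 were higher, against 6.94% of all tested genes. Every Zelnorm library lay above every NC library for 19, against 5.33%. Oasl2, Rtp4, Oas3 and Oas2 had log2 fold changes of 1.18 ± 0.17, 1.21 ± 0.20, 1.28 ± 0.22 and 1.38 ± 0.25 (edgeR adjusted p = 0.0559 to 0.0974).

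**Figure D5:**
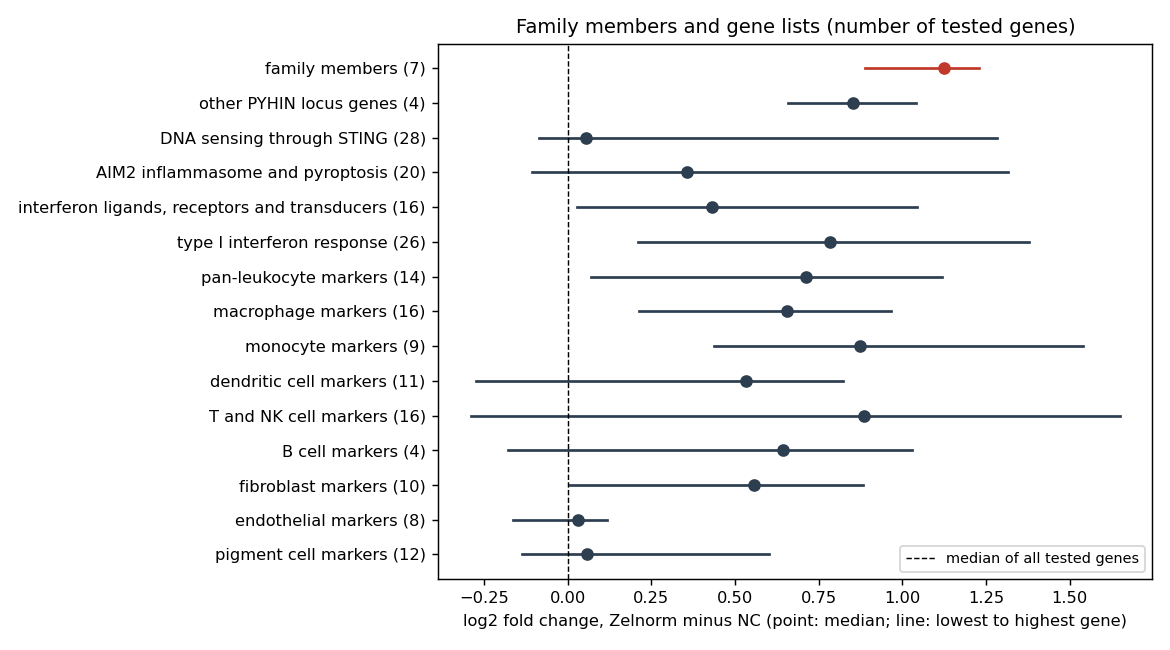
Median (point) and range (line) of the log2 fold change of Zelnorm minus NC for the members and for 14 gene lists, with the number of tested genes in brackets and the median of all tested genes as a dashed line. The members have a median of 1.12, the type I interferon response list 0.78 and the STING list 0.06, and the skeletal muscle list is left out because of its wide range.

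Markers of myeloid and other white blood cells were on the whole higher in Zelnorm tumours, as the family was. Summed pan-leukocyte markers ran from 245 to 339 CPM in NC and from 314 to 499 in Zelnorm tumours, and all 14 tested genes were above 0, with a median of 0.71. Macrophage markers summed to 283 to 567 and 551 to 789 CPM, with 16 of 16 above 0 and a median of 0.65 (1.03 without NC_10, and 0.38 without NC_5, MBZ_11 and MBZ_15). Ctss and Fcgr1 had log2 fold changes of 0.96 ± 0.17 and 0.90 ± 0.20 (edgeR adjusted p = 0.0946 and 0.152). Monocyte markers summed to 175 to 353 and 330 to 481 CPM, with 9 of 9 above 0 and a median of 0.87 (0.36 without the same 3 libraries). Ly6c2, which encodes a surface antigen of inflammatory monocytes, differed by 1.46 ± 0.25 in log2 (SE), with edgeR adjusted p = 0.0816. None of these 3 lists held a gene past the adjusted threshold of edgeR. At an unadjusted p under 0.05, 11 of 14, 11 of 16 and 6 of 9 were higher, against 6.94% of all tested genes.

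Markers of other cells differed less evenly. T and NK cell markers summed to 17.0 to 26.0 CPM in NC and 25.6 to 52.2 in Zelnorm tumours, with 15 of 16 tested genes above 0 and a median of 0.88, and MBZ_13 and MBZ_15 lay near the controls. Dendritic cell markers had 9 of 11 above 0 (median 0.53, and 0.33 without MBZ_11), and B cell markers 3 of 4, with Ms4a1 at 0 counts in at least 1 library. Fibroblast markers had 10 of 10 above 0 (median 0.56, 0.31 without NC_5, 1.10 without NC_10 and 0.11 without NC_5, MBZ_11 and MBZ_15). Endothelial and pigment cell markers had medians of 0.03 and 0.06, the former below 0 in 5 of the 7 sets that left out 1 library. The part of these cells in the levels of the PYHIN genes was not tested.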

How the data were processed

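The deposited table holds raw counts for 21878 genes, with 1 column per library. Before deposit the authors used HISAT2, HTSeq, Trimmomatic, DESeq and Cufflinks, per the submitters' processing notes, which give no versions or roles and name the builds GRCm38 and GRCh38. Total RNA (TRIzol) went into stranded TruSeq mRNA libraries, per the labels' protocols. Not given in the sources used here: annotation release, strand setting, read length, filters. Columns name a group and have no replicate number in common with the titles, so each was assigned to its group.

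Rows were matched by gene identifier to the RefSeq gene table of GRCm38.p6 (21727 matched). Genes were kept by filterByExpr, scaled by TMM and compared with edgeR 4.0.16 in R 4.3.3 (quasi-likelihood test, Benjamini-Hochberg over 12997 genes, threshold 0.05). CPM uses the TMM-adjusted library size, log2 CPM a prior count of 2, and the SE comes from the F statistic. The test was tried on simulated counts. The 8 members, the 15 gene lists and the rules were chosen with earlier results of these data known. Some lists share genes. Ifi35 is in the STING and type I interferon response lists, and Bst2 in the latter and the dendritic cell list. Irf8 is in the dendritic cell list and the list of interferon ligands, receptors and transducers. Named genes were the members, the other PYHIN genes of the cluster, its non-PYHIN neighbours, up to 4 genes per list with the smallest p and the 8 nearest in profile. Genes of the muscle, endothelial, pigment cell, B cell, dendritic cell, fibroblast and T and NK cell lists are given by their list only. Some genes that this rule names are not reported here. Alternatives were RLE and upper quartile scaling, other filters, DESeq2 1.42.0, limma voom (limma 3.58.1), a prior count of 0.5 and each library left out. Leaving out NC_5, MBZ_11 and MBZ_15 together was added after seeing the data. Figures were drawn with matplotlib 3.10.9.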

Additional observations from a re-analysis of the deposited data

How the results depend on the processing

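The members were chosen by the comparison of Zelnorm with NC, so their signs, counts and calls in refits of the same libraries are a description and support nothing. The log2 fold change of all 7 tested members stayed positive in every alternative fit, and their median ran from 1.01 (without NC_5) to 1.13 (without NC_6) with single libraries left out. With NC_5, MBZ_11 and MBZ_15 left out, chosen after seeing the data, it was 1.04. Members without overlap between groups numbered 5 to 6 of 7 in these sets, while the share of all tested genes without overlap went from 5.33% with 7 libraries to between 7.16% and 11.5% with 6, and to 17.1% without the 3 libraries. The count of all genes called at an adjusted p under 0.05, 4 with edgeR, was 34 without a filter on low counts, 201 with DESeq2, 0 without the 3 libraries named above (547 at an unadjusted p under 0.05), and between 0 (without NC_5) and 161 (without NC_10) with single libraries left out, 21 without MBZ_15. Of the members, Ifi204 was called with RLE or upper quartile scaling, a filter of 1 CPM and limma voom, joined by Mnda without a filter and by Mnda and Mndal with DESeq2. It was joined by Mndal without NC_6 and by Mnda and Pyhin1 without NC_10, it was the only member called when any 1 Zelnorm library was left out, and no member was called without NC_5 or without the 3 libraries. With the 3 libraries left out, list medians were 1.24 (other PYHIN genes), 1.09 (type I interferon response) and 0.36 (monocyte markers). With single libraries left out, medians ran from 0.46 to 1.03 for macrophage, 0.62 to 1.26 for monocyte, 0.31 to 1.10 for fibroblast and 1.77 to 6.11 for skeletal muscle markers, and from -0.15 to 0.27 for endothelial markers. With a prior count of 0.5 the genes nearest in profile were 7 of the 8 given over all libraries and 8 of 8 within groups. No paired analysis was possible because the columns carry no replicate numbers. Aim2, Ifi202b, Pydc3, Pydc4 and BC094916 are limited by their low counts.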
